A study of Mus musculus with 7 samples.

Results

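The 10 genes described here act in the G1 phase of the cell cycle, and they were measured in fetal livers that lack the RNA-binding protein Pcbp2. They are the D cyclins Ccnd1, Ccnd2 and Ccnd3, the G1 kinases Cdk4 and Cdk6, the CDK inhibitors Cdkn1b, Cdkn2c and Cdkn2d, and the retinoblastoma family genes Rb1 and Rbl1. All 10 symbols were found in the authors' deposited table and joined by identifier to the read counts, out of 38924 genes in the count files. All 10 had enough reads to be tested, with at least 212 reads in each library.

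The data are read counts per gene from messenger RNA sequencing of fetal liver of the mouse, taken 12.5 days post coitum, from 3 libraries labelled Pcbp2 knockout (replicates 3 to 5) and 4 labelled wild type (replicates 1 to 4). The labels name no knockout allele, strain, sex or number of animals behind a library. The p-values therefore measure the spread between these libraries, which may be technical. Reads assigned to genes numbered 31898339 to 42378821 in knockout and 32240949 to 44544889 in wild type. Levels are given as CPM, read counts scaled to the size of the library and then between libraries by the TMM method. Pcbp2 itself had 1.39 to 2.24 CPM in the knockout libraries and 165 to 347 CPM in the wild-type libraries. In wild type replicate 1 it stood at 165 CPM, against 329, 347 and 338 CPM in replicates 2, 3 and 4.

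In a dividing cell, D cyclins bind CDK4 or CDK6, and the kinase complexes phosphorylate the retinoblastoma protein and its relatives, which releases E2F factors and lets the cell enter S phase. INK4 inhibitors, which include p18 (Cdkn2c) and p19 (Cdkn2d), bind CDK4 and CDK6 and block their pairing with D cyclins, whereas p27 (Cdkn1b) binds cyclin and kinase together and restrains the CDK2 complexes. The fetal liver at this stage is the main site of blood formation, where erythroid progenitors divide fast and leave the cell cycle as they mature. CDK inhibitors of both classes are known to accumulate when erythroid cells stop dividing.

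The INK4 inhibitors Cdkn2c and Cdkn2d fell in knockout livers and no other of the 10 genes passed the test. Cdkn2d stood at 37.6% and Cdkn2c at 40.3% of wild type. The third inhibitor, Cdkn1b, and the genes for both kinases and for cyclins D1 and D2 had overlapping levels in the groups. Ccnd3 lay lower in every knockout library than in any wild-type library, by 0.32 on the log2 scale, without passing the test. Thus 2 of 10 members fell and 0 of 10 rose (edgeR quasi-likelihood test, adjusted p under 0.05 over 16226 tested genes). Among all tested genes 3.43% fell and 1.59% rose, 5.02% in all. By DESeq2 3 members fell and 0 rose, against 6.51% and 3.8% of all tested genes. Without adjustment, 3 of 10 members had a p under 0.05, all lower, and so had 21.8% of all tested genes in either direction and 11.8% in the lower one. On the log2 scale the median change, knockout over wild type, came to -0.17 over the 10 genes and 0.01 over all tested genes.

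Cdkn2d (ENSMUSG00000096472.1) encodes p19, an INK4 inhibitor made of ankyrin repeats, and lies on the minus strand of chromosome 9 from 21288410 to 21291407 in build mm10. Its level was 13.4, 17.6 and 14.6 CPM in knockout replicates 3 to 5, set against 44.7, 33.0, 42.0 and 42.3 CPM in wild type replicates 1, 2, 3 and 4. All 3 knockout libraries lay below the lowest wild-type library, which was replicate 2. These levels rest on 442 to 799 reads in knockout and 1320 to 1840 reads in wild type. The mean was 15.2 ± 2.19 CPM in knockout (SD, n = 3) and 40.5 ± 5.14 CPM in wild type (SD, n = 4). Its log2 fold change came to -1.41 ± 0.14 (SE; edgeR adjusted p = 0.00138). By p-value Cdkn2d ranked 16 among the 16226 tested genes, and it was called under each of the 15 alternatives. Of the 556 falling genes, 109 had a larger fold change.

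Cdkn2c (ENSMUSG00000028551.8) encodes p18, the closest relative of p19 among these genes, and lies on the minus strand of chromosome 4 from 109660876 to 109667189. It had 8.53, 5.19 and 6.05 CPM in knockout replicates 3 to 5, set against 20.3, 13.0, 17.8 and 14.2 CPM in wild type replicates 1, 2, 3 and 4. All 3 knockout libraries lay below the lowest wild-type library, replicate 2. Counts ran from 212 to 282 reads in knockout and 534 to 650 reads in wild type. On average it stood at 6.59 ± 1.74 CPM in knockout (SD, n = 3) and 16.3 ± 3.32 CPM in wild type (SD, n = 4). The log2 fold change came to -1.31 ± 0.21 (SE; edgeR adjusted p = 0.00896). This call ended when knockout replicate 5 was left out, with a log2 fold change of -1.25 (edgeR adjusted p = 0.0608).

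Upstream of a RefSeq start, both falling genes hold a pair of GC boxes, the letters GGGCGG that SP family factors can bind, within a stretch of 30 bases. Such a pair occurred in 9.09% of 32841 promoter windows of 250 bases, and the downstream start of Cdkn2c had no GC box. The pair was not among the 6 motifs searched, and its share is a description with no test. That share covers windows of any G and C content. G and C made up 77.2% of the window of Cdkn2c that holds the pair, 63.6% of that of Cdkn2d and 64.4% of that of Cdkn1b. Whether the boxes bear on the fall of the 2 genes was not tested. The stretches are shown with that of Cdkn1b, an inhibitor whose levels overlapped between the groups. All 3 come from RefSeq promoter entries (build GRCm38.p6). Stretches with a GC box before the starts of Rbl1, Cdk4 and Ccnd3 are not shown. Capitals mark GC boxes, read on both strands, and each stretch runs 5′ to 3′ along its gene. All 30 bases of the Cdkn2c and Cdkn2d stretches lie inside annotated exons of the same genes in GENCODE M21, whose outermost starts are further upstream, and the Cdkn1b stretch lies in none.
Cdkn2c, chr4:109666784-109666813, minus strand, bases 57 to 28 before the start: ggcgttGGGCGGggcgtGGGCGGggcccgg
Cdkn2d, chr9:21291304-21291333, minus strand, bases 124 to 95 before the start: cgctctGGGCGGggcctgGGGCGGgcttgc
Cdkn1b, chr6:134920328-134920357, plus strand, bases 73 to 44 before the start: gctcgccagcctGGGCGGagcggctcccgg
Promoter entries matched 7 of the 10 genes, with 9 starts. In the 250 bases before the start, Cdkn2d and the upstream start of Cdkn2c had 3 GC boxes each, and the downstream start of Cdkn2c had 0. Cdkn1b, Cdk4, Rbl1 and the downstream start of Ccnd3 had 1 each, the upstream start of Ccnd3 had 2, and Cdk6 had 0. A single GC box or more occurred in 32.7% of all windows. The looser CACCC-type letters CCNCNCCC, which KLF factors can bind and which overlap many GC boxes, matched at least once before the starts of Cdk6, Cdkn1b, Cdkn2d, Cdk4, Ccnd3 and the upstream start of Cdkn2c, and in 45.9% of all windows. Letters searched for E2F (TTTCCCGC or TTTGGCGC, in 1.3% of windows), GATA factors (AGATAA or TGATAA, each also with G as its last letter, in 26.5%), the cell cycle element CHR (TTTGAA, in 16.0%) and STAT factors (TTCNNNGAA, in 7.02%) were not in any of the 9 windows. The counts are per gene, so the starts of Cdkn2c cannot be told apart in them.

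**Figure D1:**
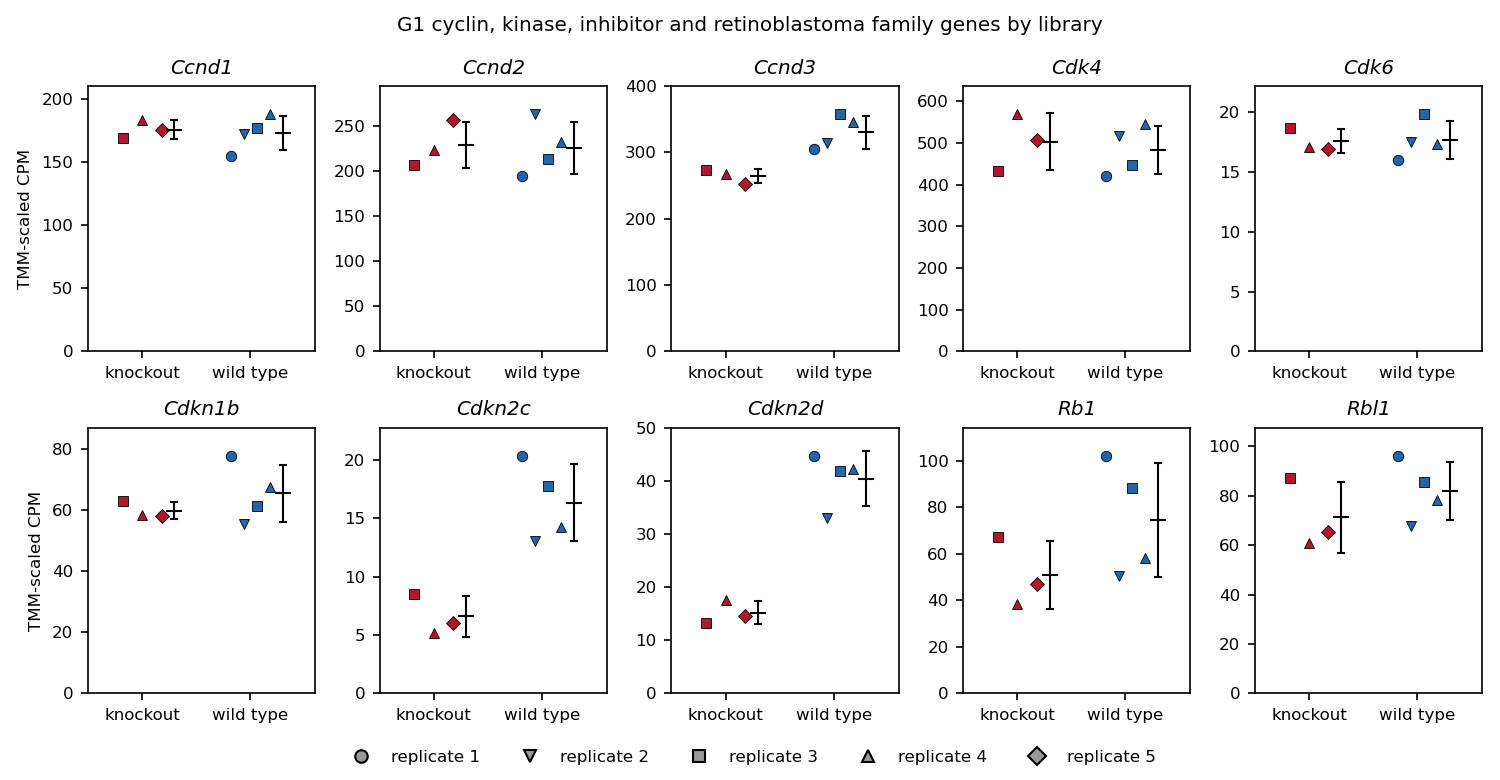
TMM-scaled CPM of the 10 genes in each library, knockout left of wild type, with a marker shape for each replicate number, and the group mean with its SD as a bar. Knockout points lie below all wild-type points for Cdkn2c, Cdkn2d and Ccnd3, and the groups overlap for the other 7 genes.

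Cdkn1b (ENSMUSG00000003031.8; chromosome 6, 134920401 to 134925513) encodes p27, the third inhibitor. It had 63.0, 58.3 and 58.2 CPM in knockout replicates 3 to 5, set against 77.6, 55.5, 61.3 and 67.4 CPM in wild type replicates 1 to 4. The knockout values lay inside the wild-type range. Its log2 fold change came to -0.13 ± 0.12 (SE; edgeR adjusted p = 0.57), with a 95% interval from -0.39 to 0.13. With total-count scaling its value was -0.0013. That interval lies apart from those of Cdkn2c (-1.78 to -0.85) and Cdkn2d (-1.73 to -1.09), although a difference between genes was not tested.

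Among the D cyclins, Ccnd3 (ENSMUSG00000034165.10; chromosome 17, 47505051 to 47599691) encodes cyclin D3, the D cyclin best known for its role in red cell precursors, where in the mouse it sets the number of divisions before maturation. It had 273, 268 and 253 CPM in knockout replicates 3 to 5, set against 306, 314, 357 and 345 CPM in wild type replicates 1 to 4. The groups did not overlap, which was so for 3 of the 10 members in this direction and for 10.8% of all tested genes. In the other direction it held for 0 members and for 9.83% of all tested genes. The mean was 265 ± 10.7 CPM in knockout (SD, n = 3) and 331 ± 24.8 CPM in wild type (SD, n = 4). The log2 fold change of -0.32 ± 0.10 (SE) did not pass (edgeR adjusted p = 0.0903), with a 95% interval from -0.54 to -0.10. With DESeq2 on the same counts it passed (adjusted p = 0.0153). In the authors' deposited table it also passed, with a log2 fold change of -0.32 and an adjusted p of 0.0205. With total-count scaling, which shifted the median of all tested genes by 0.12 on the log2 scale, the Ccnd3 value was -0.20.

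Ccnd1 (ENSMUSG00000070348.4; chromosome 7, 144929931 to 144939925) encodes cyclin D1, a target of growth factor and Wnt signalling. It had 169, 184 and 175 CPM in knockout replicates 3 to 5, set against 155, 173, 178 and 188 CPM in wild type replicates 1 to 4. Ccnd2 (ENSMUSG00000000184.9; chromosome 6, 127125162 to 127152193), for cyclin D2, measured 206, 223 and 256 CPM in those knockout libraries and 194, 263, 213 and 232 CPM in the wild-type ones. For both genes each knockout value lay inside the wild-type range. The log2 fold change came to 0.02 ± 0.09 for Ccnd1 (SE; edgeR adjusted p = 0.92) and 0.02 ± 0.12 for Ccnd2 (edgeR adjusted p = 0.949). Their 95% intervals ran from -0.18 to 0.23 and from -0.26 to 0.29, and the sign of neither was settled over the alternatives.

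Levels of different genes were compared only per length, as CPM per kb of annotated exon. Summed per kb, the 3 D cyclin genes had 91.9 ± 2.52 CPM per kb in knockout (SD, n = 3) and 98.5 ± 6.85 CPM per kb in wild type (SD, n = 4). Ccnd3 made up 30.9% to 35.0% of that sum in the knockout libraries and 35.6% to 40.3% in the wild-type libraries. The share of Ccnd1 was 39.9% to 41.8% in knockout and 36.5% to 38.4% in wild type. Ccnd2 took 24.6% to 29.2% in knockout and 22.4% to 27.8% in wild type. Thus the D cyclin with the highest level per kb was Ccnd1 in every knockout library and Ccnd3 in wild type replicates 1 and 3, and the shares are a description with no test.

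Cdk4 (ENSMUSG00000006728.6; chromosome 10, 127063534 to 127067920) and Cdk6 (ENSMUSG00000040274.5; chromosome 5, 3341485 to 3531008) encode the kinases that D cyclins activate. Cdk4 had 432, 568 and 507 CPM in knockout replicates 3 to 5, set against 421, 517, 448 and 545 CPM in wild type replicates 1 to 4. Cdk6 had 18.7, 17.1 and 16.9 CPM in the knockout libraries and 16.0, 17.5, 19.8 and 17.4 CPM in the wild-type ones. Neither gene separated the groups. Log2 fold changes were 0.06 ± 0.13 for Cdk4 (SE; edgeR adjusted p = 0.838; 95% interval from -0.23 to 0.35) and -0.01 ± 0.11 for Cdk6 (edgeR adjusted p = 0.971; 95% interval from -0.26 to 0.24). Per kb of exon, Cdk4 made up 99.0% to 99.3% of the summed level of these 2 kinase genes in knockout and the same range in wild type.

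Rb1 (ENSMUSG00000022105.6; chromosome 14, 73183673 to 73325822) encodes the retinoblastoma protein, which in mice is needed for the last steps of red cell maturation. It had 67.1, 38.4 and 47.1 CPM in knockout replicates 3 to 5, set against 102, 50.3, 88.5 and 58.2 CPM in wild type replicates 1 to 4. Knockout replicate 3 lay above wild type replicates 2 and 4, so the groups overlapped. Its mean was 50.9 ± 14.7 CPM in knockout (SD, n = 3) and 74.7 ± 24.5 CPM in wild type (SD, n = 4). The log2 fold change of -0.55 ± 0.26 (SE) did not pass (edgeR adjusted p = 0.245), and its 95% interval, from -1.13 to 0.02, was the widest among the 10 genes.

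Rbl1 (ENSMUSG00000027641.7; chromosome 2, 157145893 to 157204534) encodes p107, a relative of the retinoblastoma protein found mostly in dividing cells. It had 87.3, 60.7 and 65.5 CPM in knockout replicates 3 to 5, set against 95.8, 67.8, 85.4 and 78.4 CPM in wild type replicates 1 to 4. Its log2 fold change came to -0.20 ± 0.15 (SE; edgeR adjusted p = 0.472; 95% interval from -0.54 to 0.13). As for Rb1, knockout replicate 3 was the highest of its group and wild type replicate 2 the lowest of its own.

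**Figure D2:**
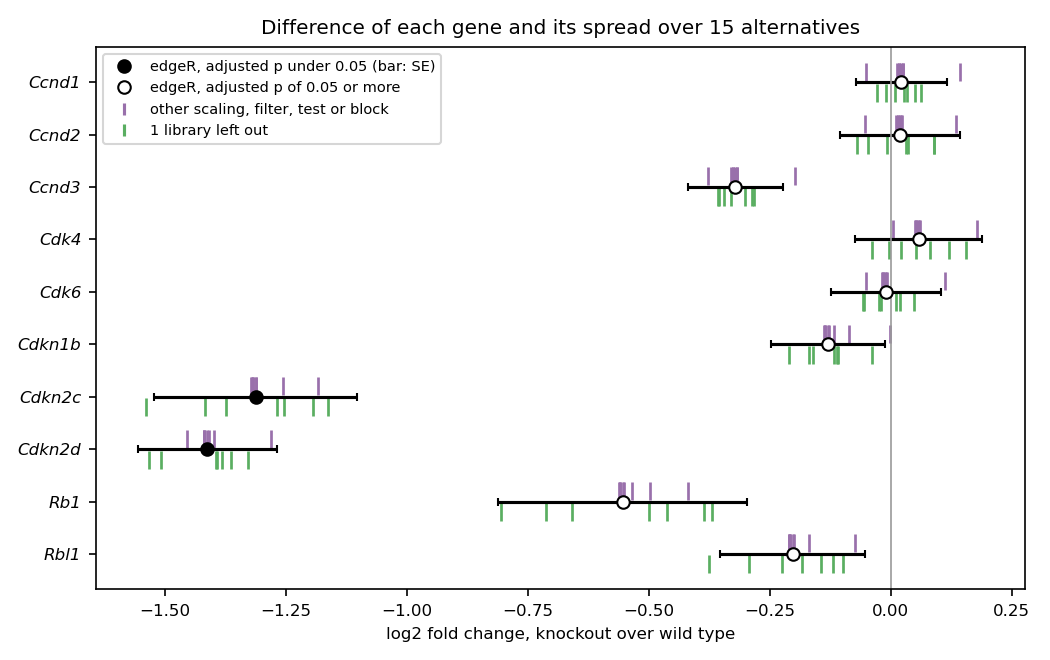
Log2 fold change of each gene, knockout over wild type, with its SE as a bar and filled circles where the edgeR adjusted p is under 0.05. Ticks show the value under each of 15 alternatives, which stay below -1 for Cdkn2c and Cdkn2d and lie on both sides of 0 for Ccnd1, Ccnd2, Cdk4 and Cdk6.

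The order of the levels per kb of exon was led by Cdk4 in both groups, at 155 ± 21.0 CPM per kb in knockout (SD, n = 3) and 149 ± 17.9 CPM per kb in wild type (SD, n = 4). In wild type it was followed by Ccnd3 (37.7 CPM per kb), Ccnd1 (36.8), Cdkn2d (25.7), Ccnd2 (24.0), Cdkn1b (14.4), Rbl1 (13.7), Rb1 (12.4), Cdkn2c (6.08) and Cdk6 (1.26). There the ranges of neighbours overlapped between Ccnd3 and Ccnd1, between Cdkn2d and Ccnd2, between Cdkn1b and Rbl1, and between Rbl1 and Rb1. In knockout the order after Cdk4 was Ccnd1 (37.4 CPM per kb), Ccnd3 (30.2), Ccnd2 (24.3), Cdkn1b (13.1), Rbl1 (11.9), Cdkn2d (9.66), Rb1 (8.46), Cdkn2c (2.45) and Cdk6 (1.26). Cdkn1b and Rbl1, Rbl1 and Cdkn2d, and Cdkn2d and Rb1 overlapped there. Cdkn2d thus ranked 7 of 10 in knockout and 4 of 10 in wild type, and it was the most abundant of the 3 inhibitors per kb in wild type but not in knockout.

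Set against the D cyclin genes and the kinase genes, the INK4 genes were less abundant in knockout. Cdkn2c and Cdkn2d together had 11.5 to 13.1 CPM per kb in the knockout libraries and 25.8 to 35.9 CPM per kb in the wild-type libraries. For every 100 CPM per kb of D cyclin there were 12.4 to 14.1 of INK4 in knockout and 25.8 to 40.6 in wild type. For every 100 of Cdk4 and Cdk6 together there were 7.33 to 8.69 in knockout and 16.1 to 27.5 in wild type. The ratio of Cdkn1b to the D cyclins overlapped between the groups, at 13.7 to 15.6 per 100 in knockout and 12.2 to 19.3 per 100 in wild type. These ratios concern messenger RNA, leave out Cdkn1c and other CDK inhibitors, are built from the same values as above and carry no test.

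**Figure D3:**
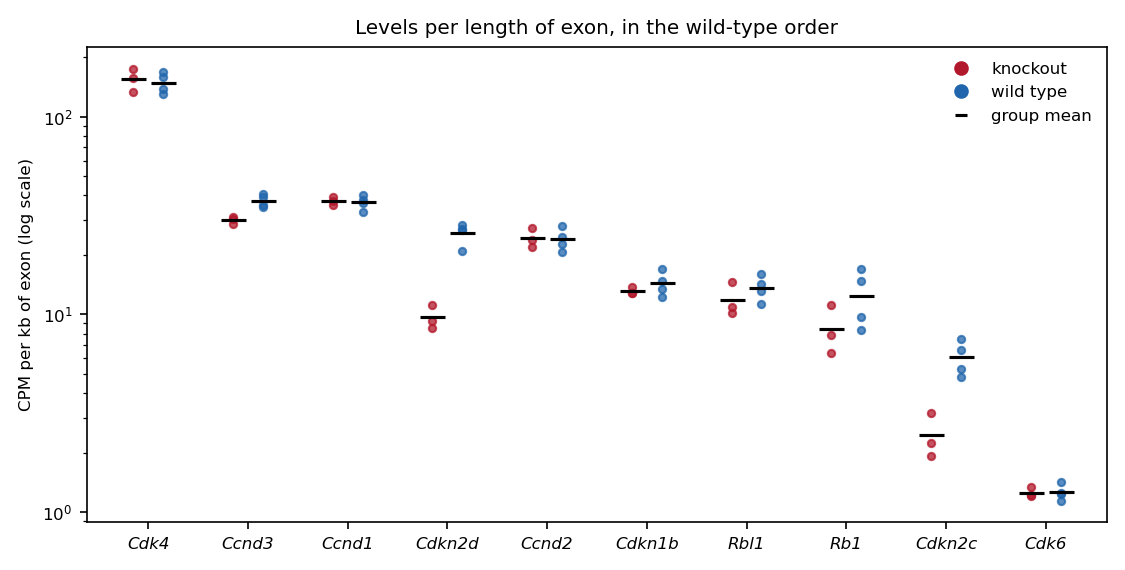
CPM per kb of annotated exon on a log axis for the 10 genes, ordered by the wild-type mean, with a point for each library, knockout left of wild type, and a dash for the group mean. Cdk4 is near 150 CPM per kb in both groups, while Cdkn2d is at 9.66 in knockout and 25.7 in wild type.

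The libraries differed in their marker genes along with some of the 10. Of 12 erythroid markers 11 were found, and 7 of these fell, with none higher. Among all tested genes 3.43% fell and 1.59% rose. The summed level of the erythroid markers was 3321, 1978 and 2533 CPM in knockout replicates 3 to 5, set against 8148, 4091, 7269 and 5319 CPM in wild type replicates 1 to 4. Within each group the libraries stood in the same order for this sum, Cdkn2c, Rb1 and Rbl1: replicate 3, then 5, then 4 in knockout, and replicate 1, then 3, then 4, then 2 in wild type. Relative to the wild-type mean, on the log2 scale, Cdkn2c was at -0.94, -1.66 and -1.43 in knockout replicates 3, 4 and 5, and the erythroid sum at -0.90, -1.65 and -1.29. Cdkn2d was at -1.60, -1.20 and -1.47 in the same libraries, the reverse order. Its wild-type order also differed, with replicate 4 above replicate 3. In bulk tissue, fewer cells of a type and less RNA per cell cannot be told apart, and the part of red cell content in the INK4 values was not tested.

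Markers of dividing cells gave the same library order as the erythroid sum. Their sum was 4790, 3352 and 3754 CPM in knockout replicates 3 to 5, set against 5648, 3873, 5411 and 4496 CPM in wild type replicates 1 to 4. The groups overlapped for this sum, as they did for Rb1 and Rbl1. Of the dividing cell markers 0 of 10 passed in either direction by edgeR, with a median log2 fold change of -0.20. As only 5.02% of all tested genes passed, 0 of 10 does not show that a marker list was unchanged. Of the other marker lists, 6 of 10 macrophage markers fell (summed 240 to 311 CPM in knockout and 331 to 371 CPM in wild type), and so did 5 of 8 megakaryocyte markers (178 to 186 CPM in knockout and 298 to 407 CPM in wild type). Among endothelial markers 3 of 10 rose (336 to 410 CPM in knockout and 243 to 319 CPM in wild type). None of 10 hepatoblast markers passed (7184 to 9153 CPM in knockout and 5762 to 12030 CPM in wild type). Heart and skeletal muscle markers, 2 of 10 of which rose, summed to 93.7 to 378 CPM in knockout and 85.8 to 173 CPM in wild type. No marker found was at 0 throughout a group, and the part of these cell types in the values of the 10 genes was not tested.

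**Figure D4:**
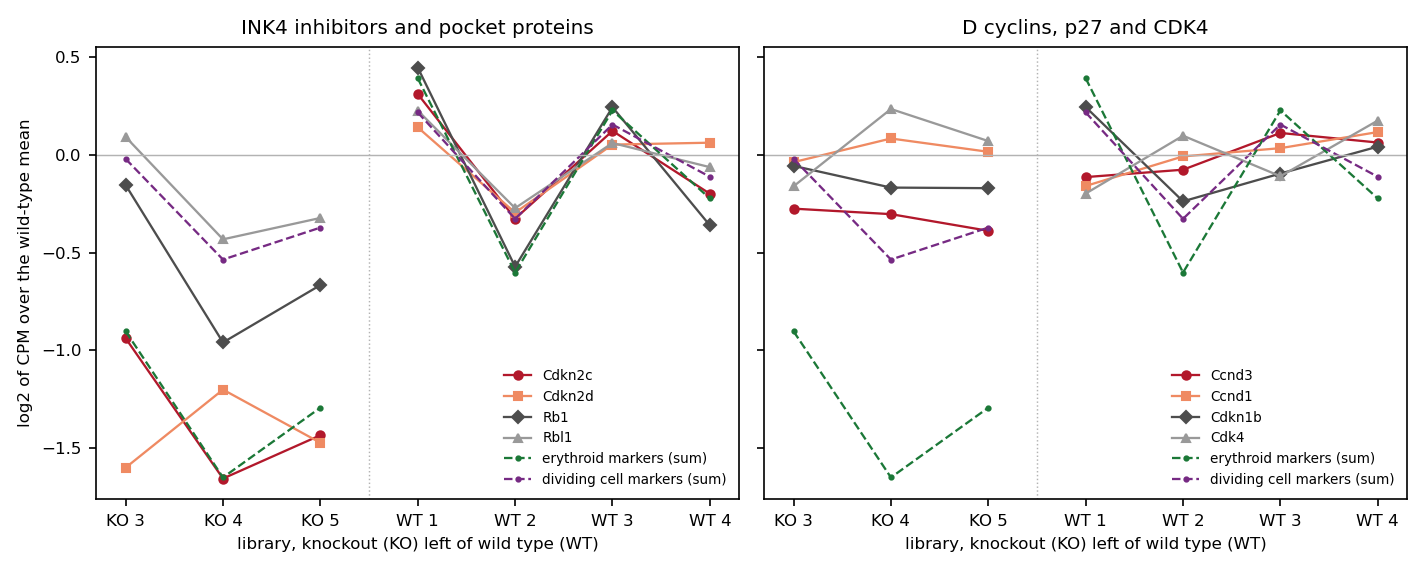
Log2 of each library's CPM over the wild-type mean, knockout (KO) left of wild type (WT), for 4 genes a panel, with the summed erythroid and dividing cell markers as dashed lines. Cdkn2c lies close to the erythroid sum in the knockout libraries, Cdkn2d is lowest in knockout replicate 3, and Ccnd1 and Cdk4 stay near 0.

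Other genes of the same pathway were read from 5 lists with 56 genes, of which 55 were tested. Of these, 1 rose and 3 fell, and their median log2 fold change was -0.03. Among all tested genes 1.59% rose and 3.43% fell. In the list of E and A cyclins with CDK2 and its activators, 1 of 10 fell and none rose. It was Cdc25b, a phosphatase that activates CDKs, mostly at the entry into mitosis. Cdc25b had 55.4, 40.2 and 40.7 CPM in knockout replicates 3 to 5, set against 160, 114, 184 and 140 CPM in wild type replicates 1 to 4 (log2 -1.72 ± 0.18, edgeR adjusted p = 0.00156). The list median was -0.10. Its cyclin E genes had log2 fold changes of -0.28 for Ccne1 (edgeR adjusted p = 0.222) and -0.31 for Ccne2 (edgeR adjusted p = 0.388), and the value of Cdk2 was 0.12 (edgeR adjusted p = 0.461).

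Of the other CDK inhibitors and the third pocket protein, 4 of 5 were tested and 0 passed in either direction by edgeR. Cdkn1a, the p21 inhibitor that p53 induces, had 8.83, 10.9 and 10.5 CPM in knockout replicates 3 to 5, set against 7.72, 10.1, 6.51 and 7.84 CPM in wild type replicates 1 to 4 (log2 0.32 ± 0.16, edgeR adjusted p = 0.285). Rbl2, for the pocket protein p130 of resting cells, had a log2 fold change of -0.17 ± 0.11 (edgeR adjusted p = 0.409). Cdkn1c, the imprinted p57 inhibitor, was at -0.11 ± 0.12 (edgeR adjusted p = 0.633). It had many reads, at 644 to 747 CPM in knockout and 669 to 862 CPM in wild type. Cdkn2b, an INK4 gene like the falling pair, was at 0.61 ± 0.55 (edgeR adjusted p = 0.568) at only 0.121 to 0.64 CPM in knockout and 0.122 to 0.345 CPM in wild type. Cdkn2a had too few reads to be tested.

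In the list of genes that control the turnover of D cyclins and p27, 1 of 18 fell and none rose, with a median of -0.02. It was Rnf123, the ubiquitin ligase subunit that targets p27 in the cytoplasm during G1. Rnf123 had 54.4, 50.8 and 47.5 CPM in knockout replicates 3 to 5, set against 115, 69.5, 114 and 91.1 CPM in wild type replicates 1 to 4 (log2 -0.93 ± 0.17, edgeR adjusted p = 0.0139). Its call ended without knockout replicate 5 (edgeR adjusted p = 0.079). Among the wild-type libraries Rnf123 was lowest in replicate 2, as were Cdkn2c, Cdkn2d, Cdkn1b, Rb1, Rbl1 and the erythroid and dividing cell sums.

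Of the 7 genes of the MuvB complex and its Myb partners, 0 passed in either direction by edgeR. The MuvB complex represses cell cycle genes when joined to p107 or p130. Mybl2, the B-Myb factor of dividing cells, had a log2 fold change of -0.36 ± 0.12 (edgeR adjusted p = 0.104), and Mybl1 one of 0.28 ± 0.15 (edgeR adjusted p = 0.316). Of 16 genes listed as possible regulators of D cyclins, 1 rose and 1 fell, with a median of 0.17. Lef1, a Wnt pathway factor, had 2.87, 3.68 and 6.22 CPM in knockout replicates 3 to 5, set against 1.69, 2.39, 1.67 and 1.52 CPM in wild type replicates 1 to 4 (log2 1.22 ± 0.29, edgeR adjusted p = 0.0398). Tal1, a factor of blood stem and red cells, measured 202, 124 and 151 CPM in the knockout libraries, against 389, 199, 336 and 283 CPM in the wild-type ones (log2 -0.92 ± 0.23, edgeR adjusted p = 0.0466). Both calls ended when single libraries were left out. For Lef1 these were knockout replicates 4 and 5 and wild type replicates 1, 3 and 4 (edgeR adjusted p up to 0.187), and its call also ended with limma-voom (adjusted p = 0.0502). For Tal1 they were the same 5 libraries (edgeR adjusted p up to 0.174).

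**Figure D5:**
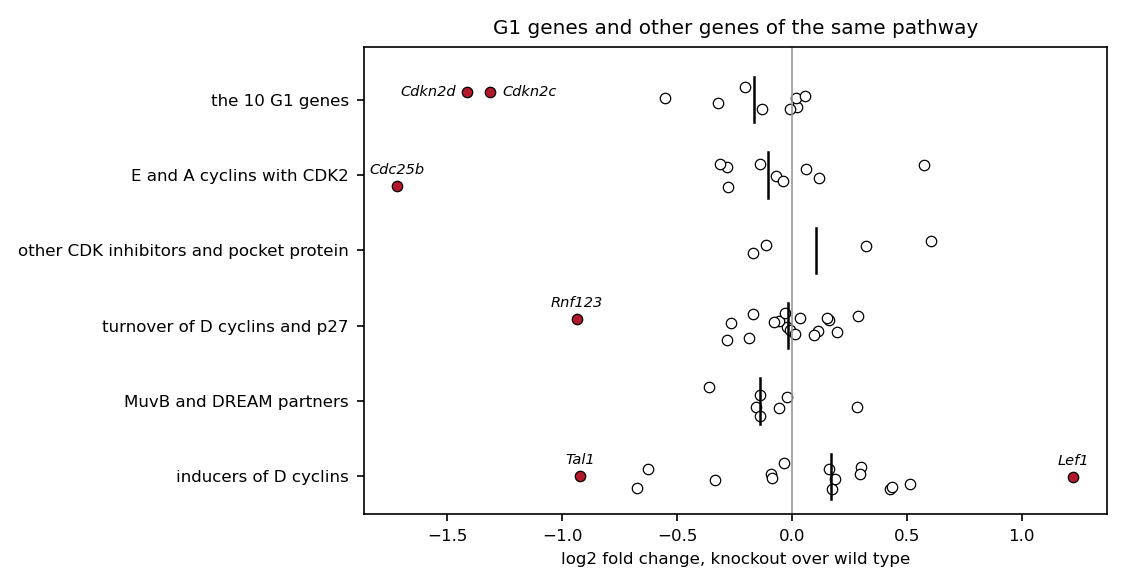
Log2 fold change, knockout over wild type, of the tested genes in each list, a circle a gene, filled and named where the edgeR adjusted p is under 0.05, with the list median as a bar. The 2 INK4 genes, Cdc25b, Rnf123 and Tal1 are filled below 0, and Lef1 is filled above it.

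Of the 10 genes, 3 in the authors' deposited table had an adjusted p under 0.05, all lower in knockout, while 6.86% of its 15548 genes were called lower and 4.06% higher. The log2 fold changes there, from the authors' deposited table, were -1.40 for Cdkn2d (adjusted p = 3.4e-17), -1.28 for Cdkn2c (adjusted p = 1.15e-07) and -0.32 for Ccnd3. Rb1 was at -0.54 in the authors' deposited table (adjusted p = 0.141), and the other 6 genes had adjusted p-values from 0.5 to 0.969 there.

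Some of the 10 genes share exon bases with a neighbour on the opposite strand in GENCODE M21. Cdk4 shares 641 bases with Tspan31, Ccnd1 1100 with LTO1, Ccnd3 361 with Bysl, and Rb1 488 with Rcbtb2 and 408 with Lpar6. Ccnd2 shares 372 bases with Gm43126 and 368 with 9330179D12Rik, and Cdk6 shares 368 with Gm17590, all annotated as antisense genes. The libraries were stranded, but the sources used here do not say whether the counting used strand, so reads in these bases cannot be assigned with certainty. Cdkn1b, Cdkn2c and Cdkn2d overlap no annotated gene in that release.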

How the data were processed

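Per the labels' protocols, total RNA was isolated with Trizol reagent, and libraries were prepared by TruSeq Stranded mRNA-seq. Per the submitters' processing notes, cutadapt 1.4.2, TopHat2, HTSeq, DESeq2 and DESeq were used with build mm10; other settings were not given in the sources used here. For each library the authors deposited a file of unnormalized read counts by gene, followed by 5 HTSeq summary lines, which were left out of library sizes and held 19.3% to 22.1% of reads in knockout and 21.1% to 26.0% in wild type. The authors' deposited table gives, per the file headers, a mean normalized signal over samples, a log2 fold change with its standard error, a test score and p-values before and after adjustment for 15548 genes. The sign of its fold change matched that of the counts for all 1697 genes past its threshold that were also tested here.

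The analysis used edgeR 4.0.16 under R 4.3.3. The filter filterByExpr left 16226 of 38924 genes, and libraries were scaled by TMM. All 7 libraries entered a quasi-likelihood fit with genotype as the sole term, and p-values were adjusted by Benjamini-Hochberg over all tested genes, with a threshold of 0.05. Standard errors are the log2 fold change over the root of the F statistic, and 95% intervals use its degrees of freedom. The fit was tested on simulated data. Exon lengths and coordinates came from GENCODE M21, matched by identifier without its version. Which release the authors used for counting is unknown here. Counting error is small at the depths of the 10 genes and larger for genes with few reads, such as Cdkn2b. No floor was used.

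Alternatives were RLE and total-count scaling, globin genes left out, 2 other filters on low counts, limma-voom (limma 3.58.1), DESeq2 1.42.0, a replicate block and each library left out. The 10 genes, the lists and the tests were chosen with earlier results of these data known. Of each pathway list, the text names the genes past the threshold or, where there were none, the 2 with the smallest p. Ccne1, Ccne2, Cdk2, Cdkn1c, Cdkn2a and Cdkn2b were named after their values were seen.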

Additional observations from a re-analysis of the deposited data

Results flagged for a closer look

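Pcbp2 in wild type replicate 1, at 165 CPM, lay far from the other 3 wild-type libraries, which ranged from 329 to 347 CPM. The gap to the nearest of them was 0.899 of the whole range of the group. A gap was flagged past a cut-off that chance passes in about 1 of 20 groups of this size. The gap of Pcbp2 lay past that cut-off, and 19 genes were examined. None of the 10 G1 genes had such a wild-type library. Without wild type replicate 1 the log2 fold changes of Cdkn2c and Cdkn2d were -1.19 and -1.36, and both were still called by edgeR.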

How the results depend on the processing

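Cdkn2d was called under all 15 alternatives, with a log2 fold change from -1.53 to -1.28. Cdkn2c ranged from -1.54 to -1.16 and lost its call without knockout replicate 5. The sign held throughout for 6 of the 10 genes, but not the size. Total-count scaling gave -0.0013 for Cdkn1b and -0.07 for Rbl1. Cdkn1b came to -0.04 when wild type replicate 1 was left out and to -0.21 when it was replicate 2. Rbl1 was at -0.38 without knockout replicate 3, -0.10 without knockout replicate 4 and -0.12 without wild type replicate 1. Rb1 ranged from -0.80 (without knockout replicate 3) to -0.37 (without wild type replicate 1), and Ccnd3 from -0.36 to -0.28 with 1 library left out. With 1 library left out the sign turned for Ccnd1, from -0.028 to 0.062, for Ccnd2, from -0.070 to 0.090, for Cdk4, from -0.040 to 0.155, and for Cdk6, from -0.058 to 0.048. For Cdk6 it also turned with total-count scaling (0.112). The cause was not tested.

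Members called lower numbered from 1 to 2 with 1 library left out. Over all genes, 651 rose with total-count scaling, where 37.6% of the calls were lower instead of 68.3%, and 617 rose and 1057 fell with DESeq2. With 1 library left out, from 24 to 418 rose and from 116 to 753 fell. In the pathway lists 3 genes rose by total-count scaling and none (0) by limma-voom or under the filter of 5 CPM in 3 libraries. That filter removed Lef1, so it was not tested there. With no filter on low counts 5 fell, with DESeq2 6, and with 1 library left out from 0 to 1 rose and from 1 to 5 fell.

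Equal replicate numbers occur in both groups only for 3 and 4, and the labels do not say that they mark a shared litter or day. Deviations of same-numbered libraries from their group means correlated at 0.319 and 0.258 over genes. For pairs with different numbers the values were lower, from -0.329 to 0.153. The main fit did not use such a pairing. Replicates 1, 2 and 5 each occur in a single group. With the replicate block the group difference therefore rests on replicates 3 and 4, so few libraries decide these calls. With the block 852 of 16226 tested genes rose and 1204 fell, and 4 of the 10 members fell (Ccnd3 and Rb1 besides the INK4 genes). Of the pathway genes 4 rose and 8 fell, and the values of Ccnd1 and Ccnd2 turned to -0.052 and -0.053.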
